A study of Mus musculus with 6 samples.

Results

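A stretch of chromosome 2 on the lower-coordinate side of Itpka, from Gjd2 and Actc1 to the neighboring gene Rtf1, was examined in the amygdala of mice without IP3K-A. The 40 genes were listed by position, with earlier results of these data known. Of these, 38 had a probe set that the array annotation pairs with that symbol alone, out of 22180 genes measured in this way. Dnajc17, a co-chaperone gene, and Oip5, a gene of centromere assembly, had only probe sets shared with an overlapping neighbor and were left without a value of their own. For each gene the brightest probe set was taken.

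Itpka encodes IP3K-A, a neuronal kinase that converts the calcium-releasing messenger IP3 into IP4 and also binds actin in dendritic spines. The genes beside it have no common function: they include a gap junction protein of electrical synapses, regulators of Ras signaling, mitotic proteins, mitochondrial enzymes and chromatin factors. Genes that lie close together on a chromosome are mostly inherited together, so that mice bred for a targeted allele also keep the DNA beside it. How far that stretch reaches in this line, and from which strain it came, is not given in the sources used here and was not analysed.

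Amygdala RNA of 3 WT and 3 IP3K-A KO pools was hybridised to GeneChip Mouse Gene 2.0 ST arrays, with 1 array per pool. The mice, all male and 10 to 15 weeks old, had a C57BL/6N background, the WT mice were littermates of the KO mice, and no treatment is named for either genotype. The number of mice in each pool could not be settled, and how the allele was made and where the Itpka probes lie relative to the deleted part are not given in the sources used here. Values are log2 intensities, so that a difference of 1 is a doubling of the signal, and the number of arrays limits the precision. The log2 intensity of Itpka was 8.85, 8.90 and 8.96 in the WT pools and 6.76, 6.95 and 6.96 in the KO pools, which matches the labels of all 6 arrays. The KO minus WT difference was −2.02 (SE 0.08, adjusted p = 2.6e-04 from limma).

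Some tissue markers differed between the pools. Of 7 measured striatal projection neuron markers, 7 had a negative and 0 a positive KO minus WT difference, and their summed linear intensity was 6286 to 9246 in WT and 5946 to 8471 in KO, with WT 1, WT 2 and KO 3 high. Choroid plexus markers summed to 1208 to 1467 in WT and to 1358 to 9981 in KO, with KO 1 high, and 7 of 7 had a positive difference. The 5 measured oligodendrocyte markers all had a negative difference, with sums of 3605 to 3759 in WT and 2813 to 3742 in KO. Central amygdala markers (8 of 8 measured) and basolateral amygdala and cortical markers (7 of 8) summed to between 7238 and 8084 and between 9755 and 10673 in the 6 pools. In pooled tissue, fewer cells of a type and less RNA per cell cannot be told apart, and the part of these differences in the results below was not tested.

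Of the 38 genes, 0 passed an adjusted p under 0.05 in limma, where 2 of all 22180 genes (0.00902%) did. The smallest adjusted p was 0.355, for Ivd. By the t-test that the methods name, 0 passed after adjustment as well, but so did 0 of all 22180 genes. Even Itpka had an adjusted p of 0.242 from that t-test. The methods of the study call a gene at a fold change over 1.2 with an unadjusted p under 0.1, and at these thresholds 6 of the 38 passed by limma, which is 15.8%, against 3.01% of all genes. Higher in KO were Chp1 and Rmdn3 (background 1.24% of all genes), and lower were Ivd, Knstrn, Pak6 and Bub1b (background 1.77%). With the test of the methods in place of limma, the same 6 passed, against 1.82% of all genes. At an unadjusted limma p under 0.05 stood 9 of the 38 (23.7%, against 6.52% of all genes), and by the test of the methods 5 did (13.2%, against 6.38%).

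In 13 of the 38 genes the KO pools did not overlap the WT pools (34.2%, against 13.7% of all genes). In 5 of them KO was the higher group (background 7.54%): Chp1, Exd1, Rmdn3, Ino80 and Rtf1. In the other 8 it was the lower group (background 6.16%): Ivd, Knstrn, Pak6, Bub1b, Spint1, Eif2ak4, Chac1 and Rhov. With 3 pools a group, 0.1 is the smallest p of a two-sided exact permutation test. Pools that do not overlap always give this p, so it adds nothing for these 13. Both directions were equally frequent, with 19 positive and 19 negative differences and a median of −0.003, where the median of all genes was −0.0002. The median size of the difference, without its sign, was 0.10 in log2 intensity for the 38 genes and 0.07 for all genes. The spread between pools of a group was not larger than elsewhere, with a median SD of 0.08 against 0.10 for all genes.

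**Figure D1:**
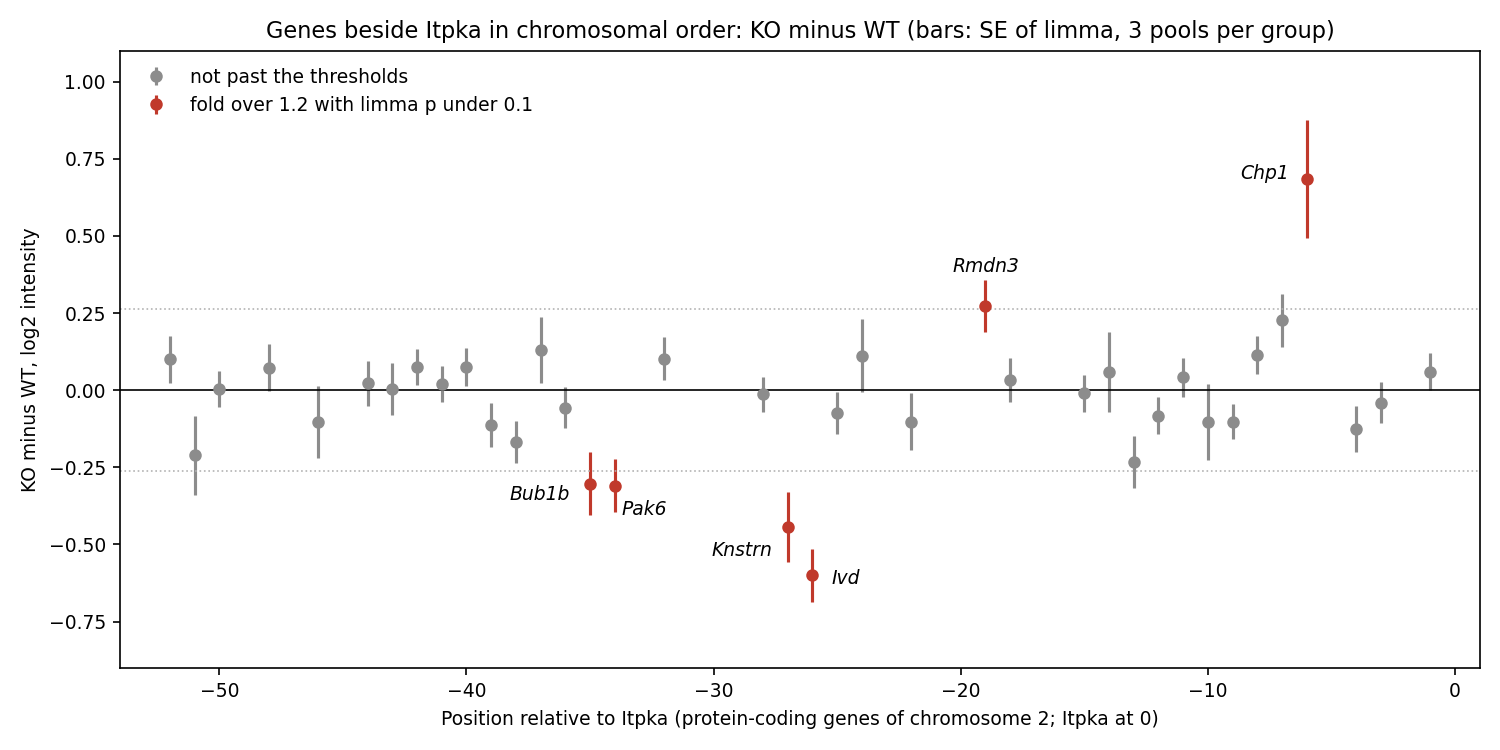
KO minus WT in log2 intensity (vertical axis) for the 38 measured genes in chromosomal order, counted in protein-coding genes from Itpka (horizontal axis), with points at the difference, bars for the SE from limma and dotted lines at a fold change of 1.2. The 4 genes past the lower line stand between 26 and 35 genes from Itpka, Rmdn3 at 19 and Chp1 at 6, while the 14 genes farther than Bub1b all stand between the dotted lines.

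The genes past the thresholds stood from 6 to 35 protein-coding genes away from Itpka. Of the 14 measured genes farther out than Bub1b, 0 passed the thresholds and Eif2ak4 alone had pools that did not overlap. Of the 24 from Bub1b to Rtf1, 6 passed and 12 had pools that did not overlap, where 3.01% and 13.7% of all genes did. This boundary was set after the values were seen and is a description only. In the nearer 19 and the farther 19 genes, 3 each passed the thresholds, with pools apart in 9 and 4 genes. Next to one another stood Knstrn and Ivd, at 27 and 26 genes from Itpka, and Bub1b and Pak6, at 35 and 34. The measured genes nearest to Itpka, Rtf1, Ndufaf1 and Nusap1, had differences of 0.06, −0.04 and −0.13.

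The annotation holds 12 other protein-coding genes within this stretch that were not among the 40, and 10 of them had a value. Of these 10, 0 passed the thresholds and 2 had pools that did not overlap, which brings the share past the thresholds to 12.5% of 48 genes. The 38 measured genes that follow on the other side of Itpka had 4 past the thresholds (10.5%), with 3 higher and 1 lower, and a median difference of 0.02. By the other measures their counts were 11 at an unadjusted limma p under 0.05 (28.9%), 10 by the test of the methods (26.3%) and 12 with pools apart (31.6%), against 9, 5 and 13 of the 38 genes from Gjd2 to Rtf1. The difference between both sides was not tested. Among the 1534 remaining measured protein-coding genes of chromosome 2, 55 passed (3.59%) and the median size of the difference was 0.07.

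Ivd, which encodes the mitochondrial isovaleryl-CoA dehydrogenase of leucine breakdown, had the smallest p of the 38 genes. Its log2 intensity was 8.93, 8.82 and 8.83 in the WT pools and 8.40, 8.28 and 8.10 in the KO pools. Each KO pool lay at least 0.46 below the WT mean. The difference was −0.60 (SE 0.09, unadjusted p = 1.5e-04, adjusted p = 0.355 from limma), and the signal was 1.52-fold lower in KO. It ranged from −0.67 to −0.52 when each pool was left out in turn.

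Knstrn, a gene of the mitotic spindle and kinetochore, lies next to Ivd in the same orientation. The log2 intensities of Knstrn were 6.00, 6.24 and 6.15 in WT and 5.88, 5.48 and 5.69 in KO. The difference was −0.44 (SE 0.11, unadjusted p = 0.0051 from limma), with KO 1 closest to the WT pools. A second probe set of Knstrn did not show it: there the pools overlapped, at 5.64, 5.55 and 5.50 in WT and 5.62, 5.69 and 5.62 in KO, a difference of 0.08 (SE 0.06). With the mean of both probe sets the difference was −0.18, under the fold threshold. The number of the second set lies among those of minus-strand genes, while Knstrn is on the plus strand (see Chp1 below). Which gene that set reads was not tested.

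The promoter windows of Ivd and Knstrn are shown because the brightest probe sets of both neighbors were lower in KO. Common control of both genes was not tested. These windows come from RefSeq (GRCm38.p6, + strand) and run from 250 bases before to 50 after the annotated start. The windows lie at chr2:118861744-118862043 for Ivd and chr2:118813753-118814052 for Knstrn. Capitals mark the letters GGGCGG (GC box), CCAAT and TATAAA on either strand, which do not overlap one another in these windows. The window of Ivd holds 4 CCAAT letters and that of Knstrn holds none of the 3 motifs.
Ivd: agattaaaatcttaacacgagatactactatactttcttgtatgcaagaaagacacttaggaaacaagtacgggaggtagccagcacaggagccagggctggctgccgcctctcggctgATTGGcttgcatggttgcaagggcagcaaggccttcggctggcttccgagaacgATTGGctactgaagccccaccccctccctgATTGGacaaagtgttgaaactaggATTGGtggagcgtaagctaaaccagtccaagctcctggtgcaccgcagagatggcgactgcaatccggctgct
Knstrn: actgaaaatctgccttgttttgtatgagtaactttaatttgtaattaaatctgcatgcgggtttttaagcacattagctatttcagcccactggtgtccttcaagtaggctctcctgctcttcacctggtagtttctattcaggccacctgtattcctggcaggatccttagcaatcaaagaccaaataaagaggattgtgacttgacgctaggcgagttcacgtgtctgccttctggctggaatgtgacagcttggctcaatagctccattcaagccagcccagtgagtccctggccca

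Of all 27025 genes with such a window, 37.9% held CCAAT, 35.9% GGGCGG and 14.2% TATAAA. Of the 37 windows found for the 40 genes, 17 held CCAAT (45.9%), 24 held GGGCGG (64.9%) and 2 held TATAAA (5.41%). The median number of CG letter pairs was 18 in these 37 windows and 7 in all windows. A match of letters is a description of the window and not a binding site.

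Among 4 measured genes of cell division, a group drawn with the values known, 4 had a negative difference and 2 passed the thresholds, where 50.1% of all genes had a negative difference and 3.01% passed. Knstrn is described above. Bub1b, the spindle checkpoint kinase BubR1, had log2 intensities of 5.89, 6.24 and 6.05 in WT and 5.88, 5.74 and 5.66 in KO. The groups of Bub1b nearly touched, between WT 1 and KO 1. Its difference was −0.30 (SE 0.10, unadjusted p = 0.019 from limma), and without WT 2 or without KO 3 the gene was no longer past the thresholds, at −0.21 and −0.25. Nusap1, a microtubule-binding protein of the spindle, had a difference of −0.13 (SE 0.07) with overlapping pools, and Zfyve19, a protein of the abscission checkpoint, one of −0.01 (SE 0.06) on its own probe set, while a set shared with Dnajc17 gave −0.27 (SE 0.13). The probe set that Oip5 shares with Nusap1 gave −0.06 (SE 0.14).

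**Figure D2:**
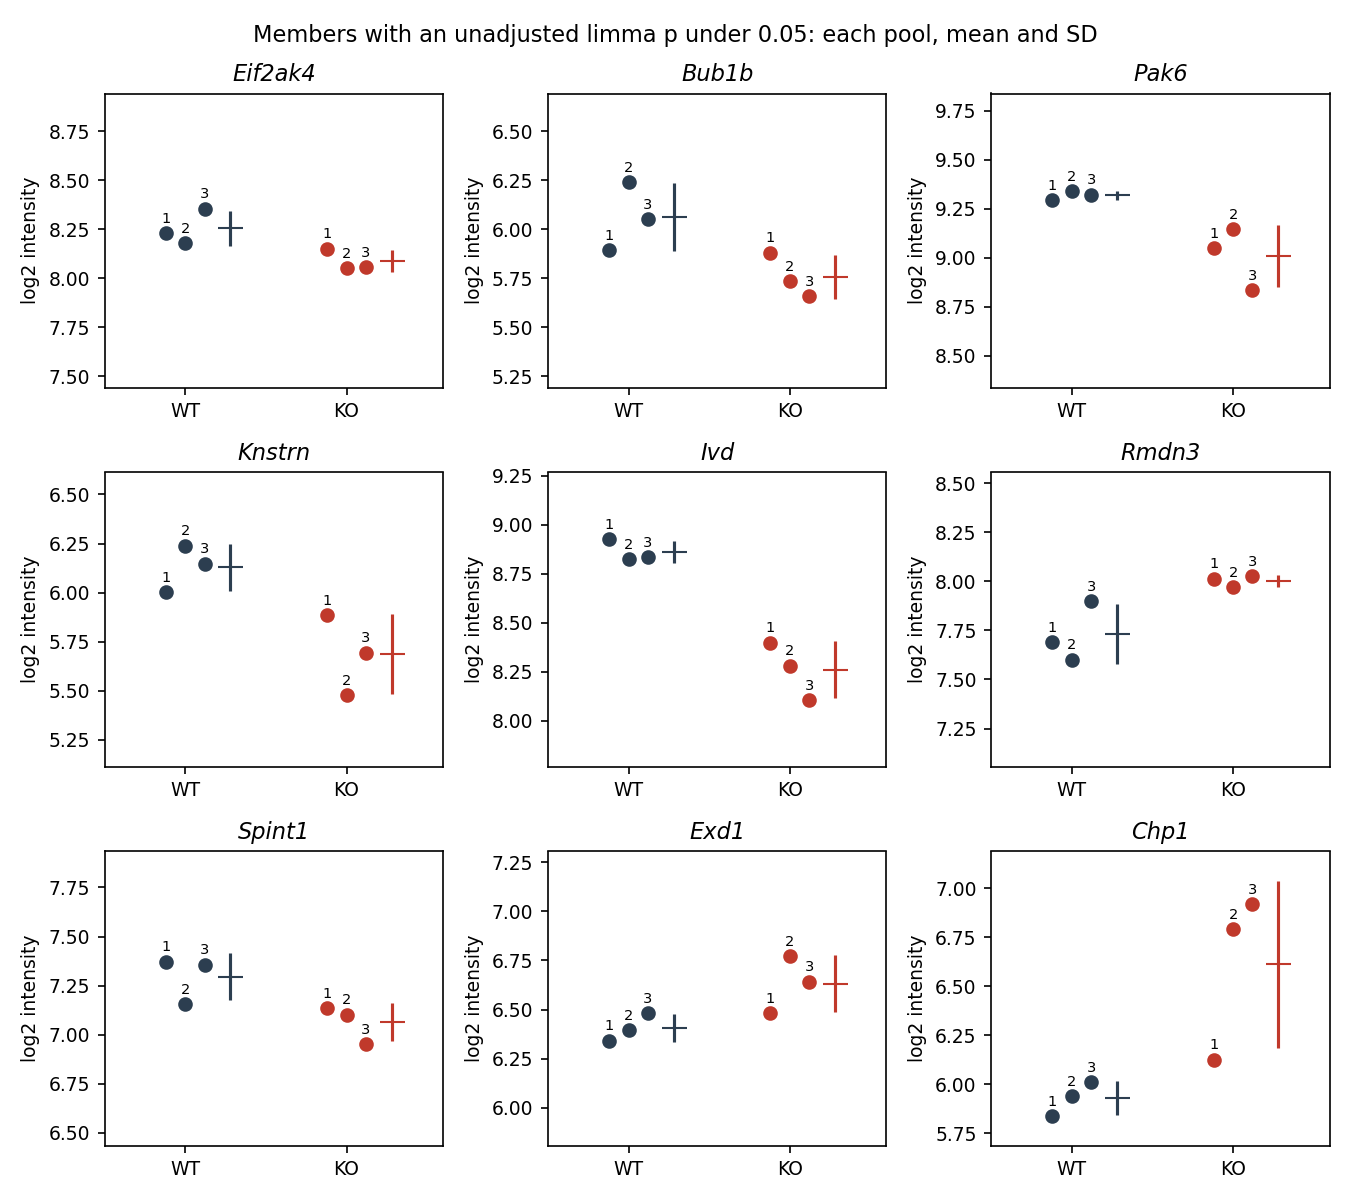
Log2 intensity (vertical axes, all spanning 1.5) of the 9 genes with an unadjusted limma p under 0.05, with a numbered point for each WT and KO pool and the mean ± SD of 3 pools beside them. In all 9 panels the pools of WT and KO do not overlap, with 6 genes lower in KO (Eif2ak4, Bub1b, Pak6, Knstrn, Ivd and Spint1) and 3 higher (Rmdn3, Exd1 and Chp1).

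Pak6, a brain-expressed serine/threonine kinase gene, was past the thresholds. Pak6 stood at 9.30, 9.34 and 9.32 in the WT pools and at 9.05, 9.15 and 8.83 in the KO pools. The WT pools lay close together, and KO 3 was the lowest of all. The difference was −0.31 (SE 0.09, unadjusted p = 0.0080 from limma), or 1.24-fold lower, and it was −0.22 and under the fold threshold without KO 3. Rhov stood at 7.49, 7.47 and 7.43 in WT and 7.32, 7.40 and 7.43 in KO, apart by a narrow margin, with a difference of −0.08 (SE 0.06). Of the regulators of Ras, the calcium- and diacylglycerol-activated exchange factor gene Rasgrp1 and the inhibitor gene Spred1, had differences of 0.07 (SE 0.06) and 0.02 (SE 0.07), both with overlapping pools. Plcb2, which encodes an enzyme that makes IP3, had a difference of 0.10 (SE 0.07), also with overlapping pools.

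Eif2ak4 encodes the kinase GCN2, which senses amino acid shortage. Its log2 intensities were 8.23, 8.18 and 8.35 in WT and 8.15, 8.05 and 8.06 in KO. All KO pools lay below all WT pools, but the difference of −0.17 (SE 0.07, unadjusted p = 0.043 from limma) was under the fold threshold. Ppp1r14d, an inhibitor of protein phosphatase 1, had a difference of 0.06 (SE 0.13). Of the 8 genes of signaling enzymes and their regulators, 5 had a positive and 3 a negative difference.

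Chp1 had the largest difference of the 38 genes, on a dim probe set with its symbol alone. The probe sets that hold it differed among themselves, and the brighter shared ones showed smaller differences. Chp1 encodes a calcium-binding protein related to calcineurin B that binds sodium-proton exchangers. The probe set with its symbol alone stood at 5.84, 5.94 and 6.01 in WT and at 6.12, 6.79 and 6.92 in KO. KO 2 and KO 3 were high and KO 1 lay just above the WT pools. The difference was 0.68 (SE 0.19, unadjusted p = 0.0082 from limma), or 1.61-fold higher, and it ranged from 0.53 without KO 3 to 0.93 without KO 1. A further 2 probe sets are shared between Chp1 and the pseudogene Gm20056 and were outside the test above. One of them stood at 9.72, 9.58 and 9.57 in WT and at 9.36, 9.88 and 9.91 in KO, with KO 1 the lowest of the 6, a difference of 0.09 (SE 0.16). The other stood at 10.70, 10.68 and 10.71 in WT and at 10.73, 11.07 and 10.90 in KO, a difference of 0.20 (SE 0.10) with pools apart.

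The number of a gene's brightest probe set mostly followed the strand of the gene on this chromosome. When the numbers were divided into 2 runs at the value that best separated the strands, 1387 of 1396 brightest probe sets of chromosome 2 genes (99.4%) fell in the run of their own strand. Of the 35 genes of the stretch with a strand in the promoter table, 34 did so, and Chp1 was the exception, with its own probe set in the run of the minus strand while the gene is on the plus strand. The second probe sets of Knstrn and Vps18, also plus-strand genes, fell in the minus-strand run as well. Counting all probe sets of chromosome 2 genes in the runs, 1410 of 1481 (95.2%) matched their strand. The match was thus less frequent among sets that were not the brightest. Of the 2 sets that Chp1 shares with Gm20056, the one with a difference of 0.09 has a number between those of Chac1 and Nusap1. Both of these are plus-strand genes. That shared set was brighter than the set of Chp1 alone, with a WT mean of 9.63 against 5.93. Which strand the probes read is not given in the sources used here and was not tested.

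**Figure D3:**
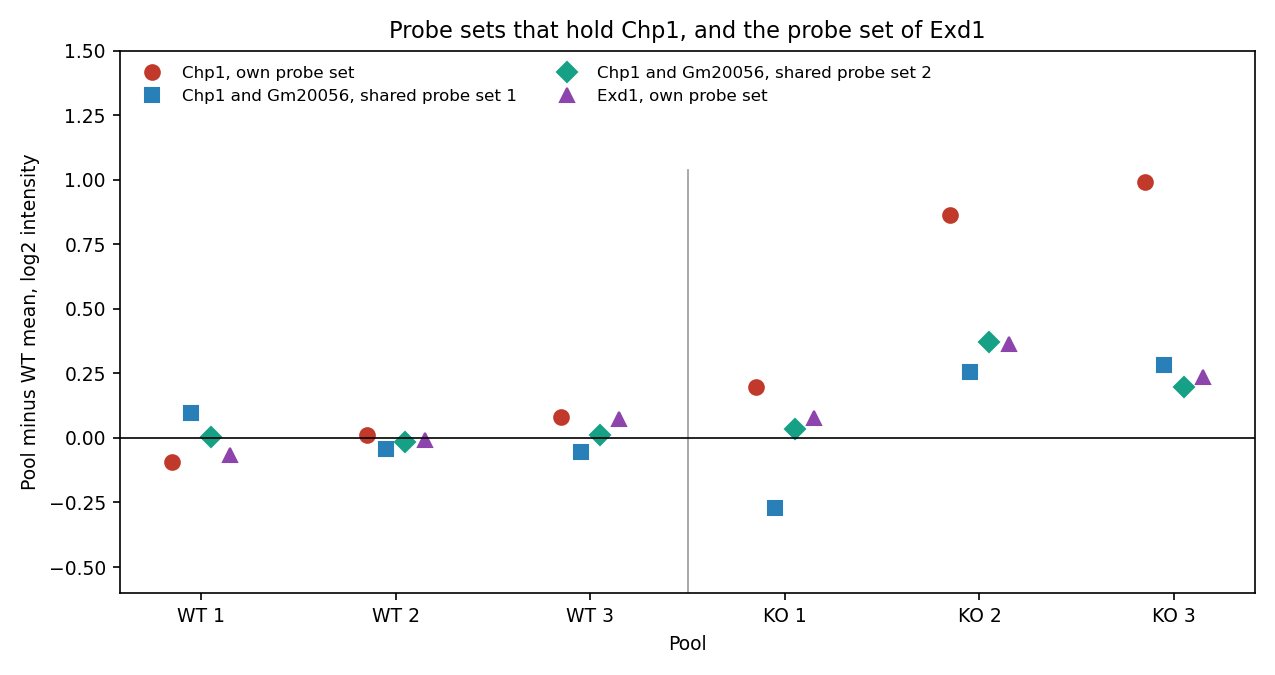
Each pool minus the WT mean in log2 intensity (vertical axis) by pool (horizontal axis) for the probe set of Chp1 alone, the 2 probe sets shared with Gm20056 and the probe set of Exd1. The probe set of Chp1 alone reaches 0.99 above its WT mean in KO 3 and 0.20 in KO 1, the shared sets differ by 0.09 and 0.20 on average, and Exd1 is highest in KO 2.

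Exd1, a germ-line gene of the piRNA pathway, starts 80 bases from Chp1 on the opposite strand, and the promoter windows of both share 179 bases. Exd1 stood at 6.34, 6.40 and 6.48 in WT and at 6.48, 6.77 and 6.64 in KO. As in Chp1, KO 2 and KO 3 were the high pools, and KO 1 was level with WT 3. The difference was 0.23 (SE 0.09, unadjusted p = 0.033 from limma), under the fold threshold, which it passed without WT 3 or without KO 1. The own probe set of Chp1 has a number in the run of the minus strand, the strand of Exd1. Why the pools of both probe sets were alike was not tested. The window of Chp1 at chr2:119547457-119547756 (RefSeq, GRCm38.p6, + strand) is shown because it covers the starts of both genes; capitals mark the same letters as above, with 2 GC boxes and 1 CCAAT.
Chp1: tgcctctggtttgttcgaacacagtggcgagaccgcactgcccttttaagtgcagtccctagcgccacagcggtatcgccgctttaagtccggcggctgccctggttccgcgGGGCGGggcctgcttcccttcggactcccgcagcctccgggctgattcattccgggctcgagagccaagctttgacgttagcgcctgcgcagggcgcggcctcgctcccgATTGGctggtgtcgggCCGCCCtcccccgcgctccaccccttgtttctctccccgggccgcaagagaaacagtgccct

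Of the 6 measured genes of mitochondria and metabolism, a group drawn with the values known, Ivd and Rmdn3 passed the thresholds. That is 33.3%, against 3.01% of all genes. Rmdn3 encodes a mitochondrial outer membrane protein that tethers mitochondria to the endoplasmic reticulum, where it takes part in calcium transfer. Rmdn3 stood at 7.69, 7.60 and 7.90 in WT and at 8.01, 7.97 and 8.03 in KO. WT 3 came close to the KO pools, which lay close together. The difference was 0.27 (SE 0.08, unadjusted p = 0.013 from limma), or 1.21-fold higher, just past the fold threshold, and it fell under it without WT 1, without WT 2 or without KO 3 (0.21 to 0.26). Chac1, a glutathione-degrading enzyme gene induced by stress, had pools apart at 7.62, 7.68 and 7.70 in WT and 7.56, 7.59 and 7.54 in KO, a difference of −0.10 (SE 0.06). Chst14, a sulfotransferase gene of dermatan sulfate synthesis, Gchfr, which regulates tetrahydrobiopterin synthesis, and Ndufaf1, an assembly factor of respiratory complex I, had overlapping pools and differences between −0.04 and 0.11.

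Of 6 measured genes of cell surface, junction and secreted proteins, 0 passed the thresholds. Spint1, a membrane inhibitor of serine proteases, came nearest, at 7.37, 7.16 and 7.36 in WT and 7.13, 7.10 and 6.95 in KO. Its pools did not overlap, and WT 2 lay close to KO 1. The difference was −0.23 (SE 0.08, unadjusted p = 0.026 from limma), and Spint1 passed the thresholds without WT 2, without KO 1 and with array weights. Gjd2, the connexin of electrical synapses between neurons, had a difference of 0.10 (SE 0.08). Gpr176, an orphan receptor of the circadian pacemaker, and Dll4, a Notch ligand of blood vessels, had −0.11 (SE 0.07) and −0.10 (SE 0.12). The matrix protein gene Thbs1 and the Dispatched family gene Disp2 stood at 0.02 and −0.01. All 5 had overlapping pools.

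None of the 4 genes of transcription and chromatin passed the thresholds, and their differences lay between −0.10 and 0.11. Ino80, the ATPase of a chromatin remodeling complex, stood at 9.19, 9.15 and 9.08 in WT and 9.31, 9.22 and 9.23 in KO, apart with a difference of 0.11 (SE 0.06). Rtf1, a factor of transcription elongation and the next gene to Itpka in the list, stood at 8.92, 8.90 and 8.79 in WT and at 8.93, 8.93 and 8.94 in KO. The groups of Rtf1 were apart only by a small margin, and its KO pools had the smallest SD of all groups of the 38 genes, 0.007. Meis2, a homeobox gene expressed in striatal and central amygdala neurons, stood at 10.54, 10.55 and 10.29 in WT and 10.20, 10.29 and 10.58 in KO. Its high pools, WT 1, WT 2 and KO 3, were those with high striatal markers, and the part of tissue composition in its values was not tested. Bahd1, a heterochromatin protein gene, had a difference of −0.07 (SE 0.07).

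Genes of RNA, translation and protein sorting had a median size of the difference of 0.06. Of the 6 measured, 0 passed the thresholds or had pools apart, and the differences ran from −0.10 for the pseudouridine synthase gene Rpusd2 to 0.13 for Srp14, a subunit of the signal recognition particle. The value of Srp14 rested on KO 2, at 9.44 against 9.01 and 9.20 in the other KO pools, and was 0.02 without it. Aqr, an RNA helicase of the spliceosome, and Fam98b, a subunit of the tRNA ligase complex, both stood at 0.00 (SE 0.06 and 0.08). Dph6, which acts in diphthamide synthesis, had 0.07 (SE 0.08), and Vps18, a subunit of the lysosomal tethering complexes, had 0.04 (SE 0.06) on one probe set and −0.12 (SE 0.09) on the other. A probe set shared between Dnajc17 and Zfyve19 stood at 7.78, 7.94 and 7.79 in WT and at 7.31, 7.80 and 7.59 in KO, with KO 2 within the range of WT. Its difference of −0.27 (SE 0.13, unadjusted p = 0.083 from limma fitted on all probe sets) met the thresholds of the methods. The annotation gives the set to both genes, and it is not among the 6. Its number lies between those of the minus-strand genes Rmdn3 and Ppp1r14d, while Zfyve19 is on the plus strand. Which gene its probes read was not tested.

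Among the remaining genes, Exd1 is described above. Actc1, the cardiac muscle actin gene, had a difference of −0.21 (SE 0.13) with overlapping pools, at 5.96, 5.85 and 5.85 in WT and 5.97, 5.61 and 5.44 in KO. The KO pools of Actc1 spread widely, and without KO 1, the pool with the high choroid plexus markers, it passed the thresholds at −0.36, while without KO 3 the difference was −0.09. Bmf, a proapoptotic gene, and Fsip1, a sperm tail gene, had −0.06 (SE 0.07) and 0.08 (SE 0.06), both with overlapping pools.

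**Figure D4:**
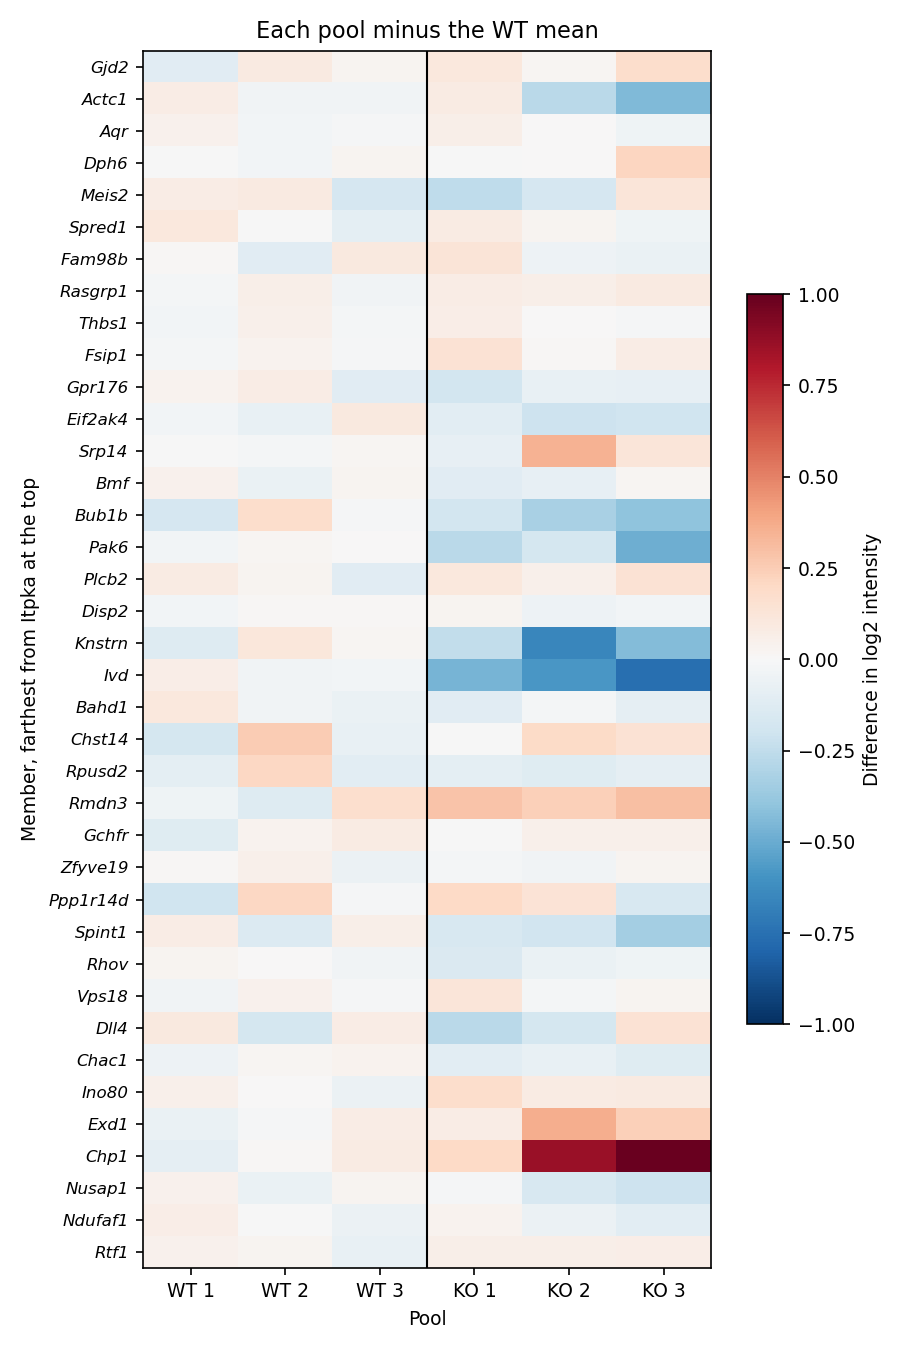
Each pool minus the WT mean (color scale, difference in log2 intensity from −1 to 1) for the 38 genes (rows, farthest from Itpka at the top) in the 3 WT and 3 KO pools (columns). The strongest colors are those of Chp1 in KO 3 and KO 2, Ivd in KO 3, Knstrn in KO 2 and Ivd in KO 2, and Meis2 is high in WT 1, WT 2 and KO 3.

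The probe sets of Chp1, Knstrn and Bub1b lay below the median level of all genes, at percentiles of 36.2, 28.9 and 28.9, and their folds rest on these dim signals. The count past the thresholds depended on single pools. It was 3 without KO 3, when Bub1b, Pak6 and Rmdn3 were lost, and 9 without KO 1, when Actc1, Spint1 and Exd1 were added; the corresponding shares of all genes were 4.39% and 3.24%. Ivd, Knstrn and Chp1 passed with every pool left out in turn.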

How the data were processed

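Amygdala RNA of 3 WT and 3 IP3K-A KO pools was analysed, grouped by the sample labels. Values were used as deposited, on a log2 intensity scale (1.57 to 13.78, which is how the scale was recognised). Per the labels, the authors produced them with GCOS and RMA, a method that subtracts background, equalises the distributions of the arrays and summarises the probes of a set. Tool versions are not given in the sources used here, and scanner values were not used here. Of 41345 probe sets, 23521 carried exactly 1 symbol in the platform annotation. KO minus WT was fitted on these without covariates (lmFit, then eBayes, limma 3.58.1, R 4.3.3), with Benjamini-Hochberg adjustment over all of them. The 1820 with several symbols and the 16004 not listed stayed out of this fit. SE and p of probe sets shared between genes came from a separate limma fit over all 41345 probe sets. A gene was represented by its brightest probe set, and percentages of all genes refer to 22180 such genes. Order along the chromosome came from a RefSeq gene table, as numbers of genes only. Named were Itpka and all measured genes of the list, with full values for those past the thresholds of the methods or with an unadjusted p under 0.05; pool values of the other genes were added after they were seen. The genes, functional groups and comparisons were chosen with earlier results of these data known. Pools are the replicates, and p-values measure the spread between pools only. Alternatives were the Student's test of the methods, other eBayes settings, scaling, filters, probe set choices, array weights, a replicate block and each pool left out. The fit was tested on simulated data with known changes.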

Additional observations from a re-analysis of the deposited data

How the results depend on the processing

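The 0 genes past an adjusted p under 0.05 stayed 0 under all alternatives but 1: with an intensity trend and robust estimation 1 gene passed, Ivd (adjusted p = 0.021 from limma, where the other alternatives gave 0.0947 to 0.812 for the smallest of the 38). In that setting 7 of all 22180 genes passed, against 2 in the main fit and 0 to 4 in the other alternatives. The 6 genes past the thresholds of the methods became 3 when probe sets below the median level were left out. This leaves 25 of the 38 genes and removes Chp1, Knstrn and Bub1b. Of all 11356 genes left in that setting 1.08% passed, against 3.01% in the main fit. With each pool left out in turn the count was 3 to 9, where 3.24% to 4.59% of all genes passed. The other alternatives gave 5 or 6, where 1.82% to 3.12% of all genes passed. The median difference was −0.0197 when quantile normalization was repeated and −0.0196 to 0.0038 with pools left out, against −0.003. Itpka kept its sign and an adjusted p under 0.05 except with the t-test of the methods (adjusted p = 0.242, difference −2.02). Of the genes past the thresholds, Rmdn3 lost its place with repeated quantile normalization and array weights, and Knstrn with the mean of its probe sets (−0.18). No gene past the thresholds changed direction; among the others, up to 5 changed sign in an alternative.

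The deviations of same-numbered pools from their group means had correlations across probe sets of −0.03, 0.09 and −0.01. Those of differently numbered pools ranged from −0.08 to 0.10. With group means of 3 pools, these values cannot settle whether the pools were paired. With the replicate block the same 6 genes passed the thresholds, 0 passed an adjusted p under 0.05 and the median stayed −0.003. Counting probe sets with identical values once, an alternative chosen after seeing the data, changed no count. The number of arrays limits all calls.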
